A study of Mus musculus with 3 samples.

Results

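Matrix metalloproteinases and their inhibitors were read in 3 total RNA libraries of mouse macrophage cytosol. The 10 genes described were chosen by symbol and comprise 6 matrix metalloproteinases (Mmp8, Mmp9, Mmp12, Mmp13, Mmp14 and Mmp19), 3 tissue inhibitors of metalloproteinases (Timp1, Timp2 and Timp3) and the membrane-anchored protease Adam8, out of 22028 annotated protein-coding genes. The cells were bone-marrow-derived macrophages of C57BL/6J mice, which are primary cells grown out of bone marrow precursors. Every culture had received 100 ng/ml Lipid A (the endotoxin core that activates a Toll-like receptor) for 12 h, then 12 h without it, and a renewed dose of 100 ng/ml for 30 min. From each, 1 µg of cytosolic RNA was depleted of ribosomal RNA and sequenced. The labels name 3 biological replicates in 1 group but give all of them the same donor entry, so SDs and p-values measure a spread that may be technical. Untreated cells, other times and the nuclear fraction were not analysed here, so the values are levels at 1 point of the response and no change is stated.

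Matrix metalloproteinases are zinc enzymes that cut collagen, elastin and other proteins outside the cell. They are made as inactive proenzymes, in which a cysteine of the propeptide occupies the zinc until it is displaced or the propeptide is cut off. Most are secreted, whereas membrane-type enzymes such as Mmp14 stay anchored at the cell surface and are activated by furin on the way there. The tissue inhibitors fill the active site with their amino-terminal cysteine ridge. In macrophages these enzymes serve migration, the clearance of matrix and the shedding of cytokines and receptors.

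The coding sequence of the zinc site is shown for the 7 proteases because it is the stretch that makes them metalloproteinases. Each runs 5′ to 3′ on the coding strand, from GENCODE M21 transcripts on mm10, with the codons of the 3 zinc-binding histidines and of the catalytic glutamate in capitals.
Mmp14: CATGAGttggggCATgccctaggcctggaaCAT
Mmp19: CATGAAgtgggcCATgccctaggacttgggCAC
Mmp9: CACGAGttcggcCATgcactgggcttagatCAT
Mmp8: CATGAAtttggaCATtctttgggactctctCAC
Mmp13: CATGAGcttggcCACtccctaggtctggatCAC
Mmp12: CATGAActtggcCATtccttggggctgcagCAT
Adam8: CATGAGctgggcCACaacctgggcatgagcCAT
All 7 sites lie within 1 coding exon each. They are at chr14:54437627-54437659 for Mmp14, chr10:128795673-128795705 for Mmp19, chr2:164951133-164951165 for Mmp9, chr9:7563086-7563118 for Mmp8, chr9:7276573-7276605 for Mmp13 and chr9:7352914-7352946 for Mmp12, all on the + strand, and at chr7:139987893-139987925 on the − strand for Adam8. Of the 33 bases, 20 to 25 were identical between any pair of the 6 matrix metalloproteinases, and 17 to 23 between Adam8 and one of them. The 12 bases that encode the cysteine of the propeptide in its usual setting were found in all 6 matrix metalloproteinases and not in Adam8. In Mmp14 they read cctcgcTGTggt, with the cysteine codon in capitals, at chr14:54436151-54436162.

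The inhibitors are compared at the codons of the first 2 cysteines of the mature protein (capitals), which form the ridge that meets the zinc.
Timp1: TGTagcTGTgccccaccccaccca
Timp2: TGCagcTGCtccccggtgcacccg
Timp3: TGCacaTGCtctcccagccatccc
These 24 bases lie at chrX:20871111-20871134 (+ strand) for Timp1, chr11:118354989-118355012 (− strand) for Timp2 and chr10:86300923-86300946 (+ strand) for Timp3. Timp1 and Timp2 shared 16 of the 24 bases, Timp1 and Timp3 shared 13, and Timp2 and Timp3 shared 15.

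The level of each gene is given in TPM (a length-scaled share of all transcripts in a library), and summarised as mean ± SD (n = 3). Detected means at least 1 TPM in every library, which 7 of the 10 genes reached: Mmp8, Mmp12, Mmp13, Mmp14, Mmp19, Timp2 and Adam8. Among all protein-coding genes 41.2% were detected. Annotated genes received 28759407, 54709008 and 49878183 expected counts in replicates 1, 2 and 3. A count of 0 allows up to 3 counts, or 0.104, 0.0548 and 0.0601 CPM in the same order, for counting error only. The median level of the 10 genes was 4.35 TPM, beside 0.143 TPM over all protein-coding genes and 8.32 TPM over the detected ones. In a bulk library, fewer cells that express a gene and less RNA per cell cannot be told apart. The cell type label was met by its markers, with 8 of 8 macrophage markers detected at a summed 5473 to 5826 TPM.

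Mmp14, the membrane-type collagenase that also activates other proenzymes at the cell surface, had the highest mean level of the 10 genes. Mmp14 (ENSMUSG00000000957.11, chr14:54431612-54445364, + strand) stood at 68.0 TPM in replicate 1, 51.7 in replicate 2 and 70.2 in replicate 3, from 7602, 12106 and 13740 expected counts. Its mean was 63.3 ± 10.1 TPM, which ranked 727 among the 9080 detected protein-coding genes. Replicate 2 was the lowest, and the other two were close together. Of the summed TPM of the 23 mouse matrix metalloproteinase genes measured, Mmp14 held 74.5% ± 3.59.

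Mmp19, a secreted enzyme that cuts basement membrane proteins, was the other of the 6 metalloproteinases to be detected outside the chromosome 9 cluster. Mmp19 (ENSMUSG00000025355.7, chr10:128790910-128800824, + strand) stood at 6.24, 5.47 and 6.47 TPM in replicates 1, 2 and 3, from 857, 1566 and 1583 expected counts. Its mean was 6.06 ± 0.524 TPM, with a coefficient of variation of 8.64% that was the lowest among the detected members, and it held 7.19% ± 0.64 of metalloproteinase TPM. Within each library Mmp14 exceeded Mmp19 by a log2 of 3.18 ± 0.13 on the scale of TPM + 1. Differences on this scale were called when all libraries shared the sign and the mean exceeded 3 SD, and this one was called (two-sided exact sign-flip p = 0.25, the lowest value possible with 3 libraries).

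Mmp9, the secreted gelatinase stored by neutrophils, was barely counted. Mmp9 (ENSMUSG00000017737.2, chr2:164940780-164955850, + strand) had 5, 23 and 28 expected counts in replicates 1, 2 and 3, equal to 0.04, 0.11 and 0.11 TPM. No library reached the detection limit, and the mean was 0.0867 ± 0.0404 TPM. The difference of log2(TPM + 1) between Mmp14 and Mmp9 was 5.87 ± 0.27, higher for Mmp14 in 3 of 3 libraries and called (exact sign-flip p = 0.25). Mmp2, the other gelatinase, was at 0.39, 0.29 and 0.41 TPM, also below the limit. With TPM rescaled to nuclear protein-coding genes, which raises every level, the mean of Mmp2 was 1.25 TPM and it passed the limit.

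Mmp12, Mmp13 and Mmp8 belong to the run of metalloproteinase genes on chromosome 9, and all 3 were detected at low levels. Mmp12 is the macrophage elastase, Mmp13 a collagenase made by mesenchymal cells and some macrophages, and Mmp8 the collagenase first described in neutrophils. Mmp12 (ENSMUSG00000049723.14, chr9:7344381-7369499, + strand) stood at 9.22, 5.34 and 3.87 TPM in replicates 1, 2 and 3, from 613, 761 and 452 expected counts. Replicate 1 was the highest and replicate 3 the lowest, and the mean was 6.14 ± 2.76 TPM. Mmp13 (ENSMUSG00000050578.10, chr9:7272514-7283331, + strand) stood at 3.75, 1.76 and 2.43 TPM from 439, 431 and 503 expected counts, with a mean of 2.65 ± 1.01 TPM. Mmp8 (ENSMUSG00000005800.3, chr9:7558456-7568485, + strand) stood at 2.47, 1.90 and 1.76 TPM from 260, 418 and 327 expected counts, with a mean of 2.04 ± 0.376 TPM. All 3 were highest in replicate 1, the shallowest library.

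The order within the cluster was not settled by these libraries. Mmp12 exceeded Mmp13 in 3 of 3 libraries, by 0.94 ± 0.38 on the log2(TPM + 1) scale, which did not pass the limit of 3 SD (exact sign-flip p = 0.25). Without replicate 3 this difference was 1.15 and passed it. Mmp13 exceeded Mmp8 in 2 of 3 libraries, by 0.23 ± 0.27 (exact sign-flip p = 0.50). Without replicate 2 this difference was 0.38 and passed the limit.

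**Figure D1:**
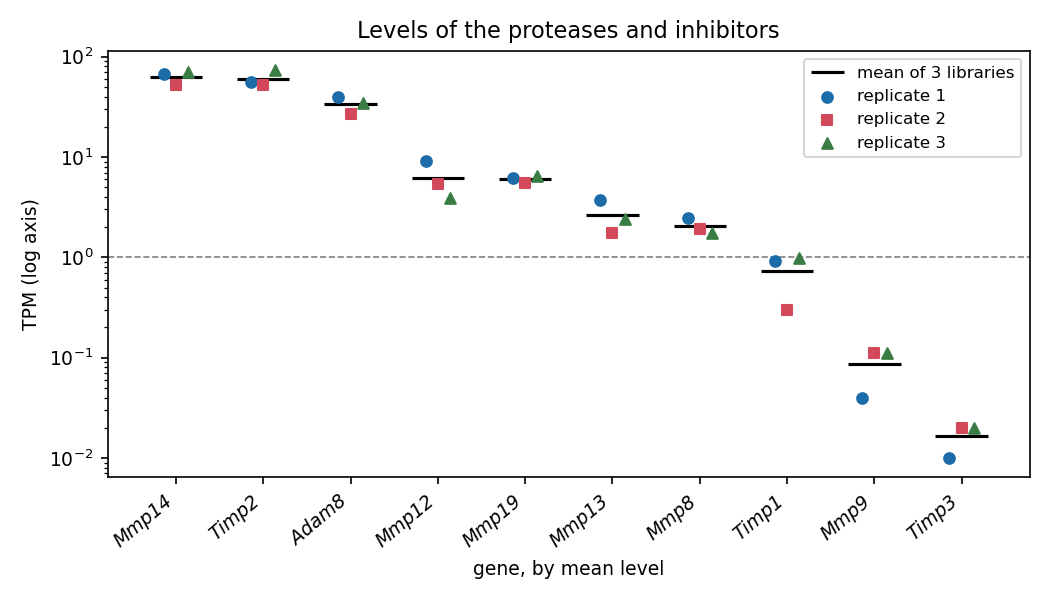
Level of each of the 10 genes in TPM on a log axis, with a point for each of 3 libraries, a bar at the mean and a dashed line at the detection limit of 1 TPM. Mmp14, Timp2 and Adam8 lie between 26.6 and 73.5 TPM in every library, 4 genes lie between 1.76 and 9.22 TPM, and Timp1, Mmp9 and Timp3 fall below 1 TPM.

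Timp2, which inhibits the enzymes and at the cell surface also joins Mmp14 and the Mmp2 proenzyme in 1 complex, held nearly all inhibitor RNA. Timp2 (ENSMUSG00000017466.9, chr11:118301069-118355740, − strand) stood at 56.1, 52.2 and 73.5 TPM in replicates 1, 2 and 3, from 8096, 13746 and 17568 expected counts. Replicate 3 was the highest, and the mean was 60.6 ± 11.3 TPM. Of the summed TPM of the 4 Timp genes, Timp2 held 98.8% ± 0.52.

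Timp1, the secreted inhibitor that also binds the Mmp9 proenzyme, was below the limit. Timp1 (ENSMUSG00000001131.11, chrX:20870166-20874735, + strand) had 27, 20 and 53 expected counts, equal to 0.91, 0.30 and 0.99 TPM, with a mean of 0.733 ± 0.377 TPM. With TPM rescaled to nuclear protein-coding genes, which raises every level, its mean was 2.49 TPM and it passed the limit. Replicate 2 stood apart at the low end. Timp3 (ENSMUSG00000020044.13, chr10:86300372-86349506, + strand), the inhibitor that binds to the matrix itself, had 2, 11 and 6 expected counts, equal to 0.01, 0.02 and 0.02 TPM. Timp2 exceeded Timp1 by 5.16 ± 0.23 and Timp3 by 5.91 ± 0.25 on the log2(TPM + 1) scale, both in 3 of 3 libraries and both called (exact sign-flip p = 0.25 for each). Mmp9 was lower than its partner Timp1 in 3 of 3 libraries, by a log2(TPM + 1) difference of -0.65 ± 0.36 that did not pass 3 SD (exact sign-flip p = 0.25). Without replicate 2, the library with the least Timp1, the difference was -0.86 and passed it.

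Adam8, a membrane-anchored protease of the related ADAM family that sheds surface proteins of leukocytes, ranked below Timp2. Adam8 (ENSMUSG00000025473.16, chr7:139978932-139992562, − strand) stood at 39.6, 26.6 and 34.6 TPM in replicates 1, 2 and 3, from 5433, 7500 and 8297 expected counts. Replicate 2 was the lowest, as for Mmp14, and the mean was 33.6 ± 6.59 TPM. Adam8 was lower than Mmp14 in 3 of 3 libraries, by a log2(TPM + 1) difference of -0.90 ± 0.12, which was called (exact sign-flip p = 0.25).

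The order of protease and inhibitor RNA was not settled. The difference of log2(TPM + 1) between Mmp14 and Timp2 was 0.27, -0.015 and -0.067 in replicates 1, 2 and 3, with a mean of 0.064 ± 0.18 (exact sign-flip p = 1.00). Mmp14 was thus above Timp2 in 1 library and below it in the other two. In a second deposited quantification of the same libraries the mean difference was -0.31, the opposite sign. Summed over the 3 inhibitors the level was 61.4 ± 11.6 TPM, and over the 6 metalloproteinases 80.3 ± 12.4 TPM. The inhibitor sum was lower in 3 of 3 libraries, by a log2 difference of -0.39 ± 0.24 that was not called (exact sign-flip p = 0.25), and the second quantification gave -0.013.

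Ordered by mean level, the genes ran Mmp14, Timp2, Adam8, Mmp12, Mmp19, Mmp13, Mmp8, Timp1, Mmp9 and Timp3. Of the 9 steps between neighbours, 1 was called, that from Adam8 to Mmp12, with a log2(TPM + 1) difference of 2.33 ± 0.47. The other steps did not exceed 3 SD of the libraries. They included Timp2 to Adam8 at 0.84 ± 0.30, Mmp12 to Mmp19 at -0.050 ± 0.56, Mmp19 to Mmp13 at 0.99 ± 0.33 and Mmp8 to Timp1 at 0.83 ± 0.34. A step that was not called does not show equal levels, and below 1 TPM the pseudocount of 1 compresses the steps.

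The replicates differed in most members by more than counting noise, and so they did in most genes. A chi-square test of homogeneity of the counts, with Benjamini-Hochberg adjustment over 13403 genes, called 8 of the 9 members tested, and 66.2% of all genes tested. The exception was Mmp9, at an adjusted p of 0.0612 by this test. Timp3 had too few counts to be tested. The biological coefficient of variation, the spread beyond counting noise as estimated by edgeR, had a median of 15.8% over the 8 members with a value, beside 13.4% over all genes. It was highest for Timp1 at 37.2%, Mmp12 at 25.5% and Mmp13 at 22.6%, and lowest for Mmp19 at 10.5%.

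The detected members were all lower in replicate 2, by unequal amounts, and did not move as 1 block in the others. Each library was set against the mean of the other two, after TMM scaling. In replicate 1, 6 of the 7 detected members were higher, with a median log2 ratio of 0.35, beside 47.1% of detected protein-coding genes. One of the 6 was Mmp19 at 0.013, which was at -0.018 when scaled by library totals. In replicate 2 all 7 were lower, with a median of -0.31, while 60.2% of detected protein-coding genes were higher there. Mmp8 was only slightly lower in replicate 2, at -0.061, and was lowest in replicate 3, at -0.35. In replicate 3, 4 were higher and 3 lower, with a median of 0.022, and 42.4% of detected protein-coding genes were higher. Mmp12 had the widest span, with log2 ratios of 0.93, -0.16 and -0.97 in replicates 1, 2 and 3. Timp2, at -0.069, -0.36 and 0.40, was highest in replicate 3, where Mmp12 was lowest. Mmp13, at 0.80, -0.72 and -0.21, was lowest in replicate 2 rather than replicate 3.

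**Figure D2:**
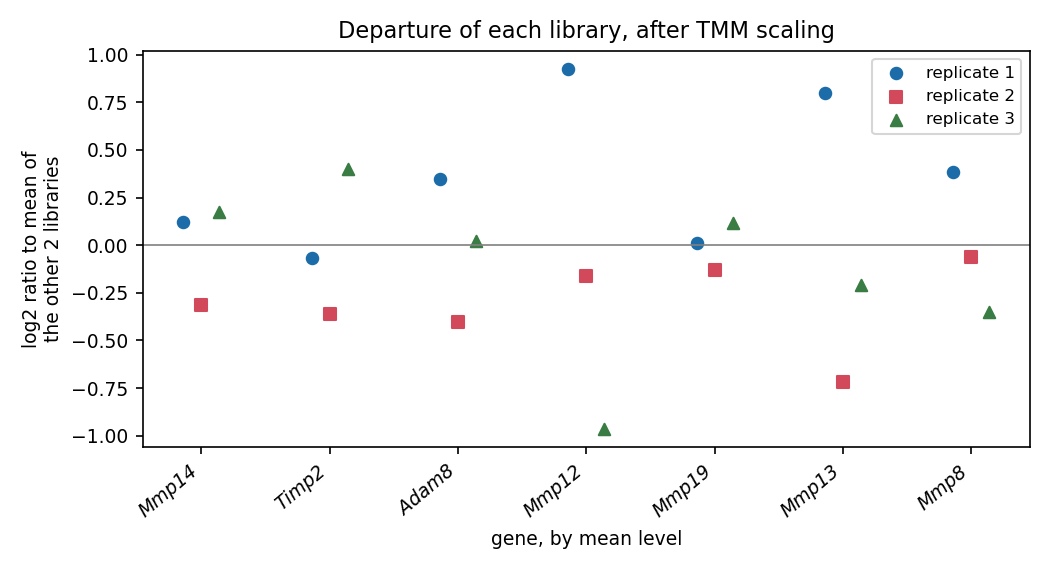
Log2 ratio of each library to the mean of the other 2, after TMM scaling, for the 7 detected genes, with a point for each library. All 7 points of replicate 2 lie below 0, and Mmp12 spans from -0.97 in replicate 3 to 0.93 in replicate 1.

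Transcripts of the main protease and inhibitor were not equally certain. Mmp14 was almost entirely Mmp14-201, with 97.0% ± 0.97 of the gene's TPM, and Mmp8 and Mmp13 have 1 annotated transcript each. Mmp19-201 held 74.5% ± 1.5, and Adam8-201 and Adam8-202 held 66.5% ± 2.98 and 30.3% ± 1.86. The second quantification gave 64.1% for Mmp19-201 and 63.1% for Adam8-201. For Timp2, Timp2-201 held 78.04% ± 6.42 and Timp2-202, which starts at another first exon, held 22.0% ± 6.42. The coding sequence of Timp2-202 lacks the cysteine codons printed for Timp2, and its annotation is incomplete at the 3′ end. In the second quantification the 2 transcripts were nearly even, at 52.6% and 47.4%.

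Mmp12 RNA was spread over transcripts that differ in whether they encode the zinc site. The transcript with the longest coding sequence, Mmp12-201, held 0.38% ± 0.39 of Mmp12 TPM. Mmp12-204, annotated as a target of nonsense-mediated decay, held 40.7% ± 1.82, Mmp12-203 held 29.4% ± 1.38 and Mmp12-202 held 28.6% ± 2.16. The second quantification changed this order, with Mmp12-203 first at 37.9%, then Mmp12-204 at 30.8% and Mmp12-202 at 27.3%. Transcripts whose coding sequence contains the zinc site printed for Mmp12 held 58.4% ± 0.98, and 65.3% ± 1.28 in the second quantification. The same share was 97.5% ± 0.95 for Mmp14 and 96.8% ± 1.12 for Adam8. These shares are model estimates from short reads that transcripts of a gene have in common.

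**Figure D3:**
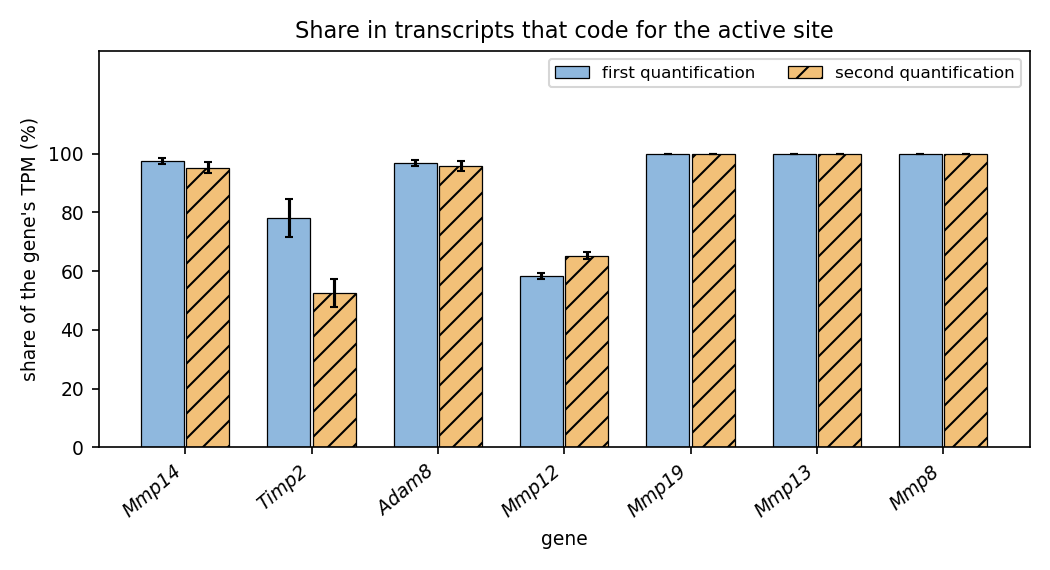
Share of the TPM of each of the 7 detected genes in transcripts whose coding sequence holds the zinc site (proteases) or the first cysteines (Timp2), in percent, with bars at the mean and error bars of 1 SD over 3 libraries, for the first and the second quantification. Mmp12 stands at 58.4% and 65.3% and Timp2 at 78.04% and 52.6%, whereas Mmp14 and Adam8 stand above 95% in both.

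The Mmp12 transcripts also begin at 2 places. Transcripts that start upstream, from chr9:7344381-7344397, held 30.2% ± 2.64 of Mmp12 TPM, and those that start downstream, from chr9:7347374-7347406, held 69.8% ± 2.64. The second quantification gave 38.6% and 61.4%. The sequences before Mmp13, the downstream Mmp12 start and Mmp14 are shown as examples that differ, and do not stand for the whole cluster. They are the 120 bases that end just before the first annotated exon of Mmp13 (chr9:7272394-7272513, + strand) and of the downstream Mmp12 start (chr9:7347254-7347373, + strand), and the 120 bases at chr14:54431478-54431597 (+ strand) for Mmp14, from RefSeq on GRCm38.p6. Capitals mark matches to TGANTCA, the site bound by AP-1, to TATAAA, and to GGGCGG, the GC box, on either strand.
Mmp13: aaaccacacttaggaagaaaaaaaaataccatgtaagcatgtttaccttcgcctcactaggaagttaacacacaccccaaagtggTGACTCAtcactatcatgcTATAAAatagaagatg
Mmp12: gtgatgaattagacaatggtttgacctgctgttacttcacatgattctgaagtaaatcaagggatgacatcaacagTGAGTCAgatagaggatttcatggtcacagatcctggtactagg
Mmp14: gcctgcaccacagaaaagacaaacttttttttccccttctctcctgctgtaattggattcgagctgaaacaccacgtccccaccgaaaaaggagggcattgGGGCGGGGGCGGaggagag
RefSeq windows of 300 bases were matched for 8 of the 10 genes, those of Mmp9 and Mmp19 not being among them. TGANTCA was in the windows of Mmp13 and of the downstream Mmp12 start alone, and in 7.81% of all 32851 windows. The windows of Mmp8 and of the upstream Mmp12 start, also in the cluster, had no match to it. TATAAA was in the windows of Mmp13, the downstream Mmp12 start and Mmp8, and in 13.6% of all. These matches were at positions -16, 5 and -3 from the start in that order, so only that of Mmp13 lies wholly before it. GGGCGG was in the windows of Mmp14, Adam8, Timp1, Timp2 and Timp3, and in 35.7% of all. GC content ran from 38.7% before the upstream Mmp12 start to 68.7% for Timp2, with a median of 52.7% over all windows. A match describes the letters in the window and not binding.

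The cluster on chromosome 9 was read gene by gene, since Mmp12, Mmp13 and Mmp8 lie among 7 relatives. From Mmp13 to Mmp7 it spans chr9:7272514-7699585 and holds 10 metalloproteinase genes, of which 4 were detected. The one beside the 3 members was Mmp27, next to Mmp8, at 4.27, 2.84 and 3.62 TPM in replicates 1, 2 and 3 (3.58 ± 0.716). Mmp27 thus stood above Mmp8 in every library. In the second quantification Mmp27 and Mmp12 still reached 1 TPM in every library, whereas Mmp13 and Mmp8 did not. Most levels were lower there, and 7574 protein-coding genes were detected rather than 9080. Mmp1a (annotated as a polymorphic pseudogene), Mmp1b and Mmp20 had 0 expected counts in all libraries. The stromelysins Mmp3 and Mmp10 and the matrilysin Mmp7 had at most 2 counts in any library. None of the 3 other genes within the cluster was detected.

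**Figure D4:**
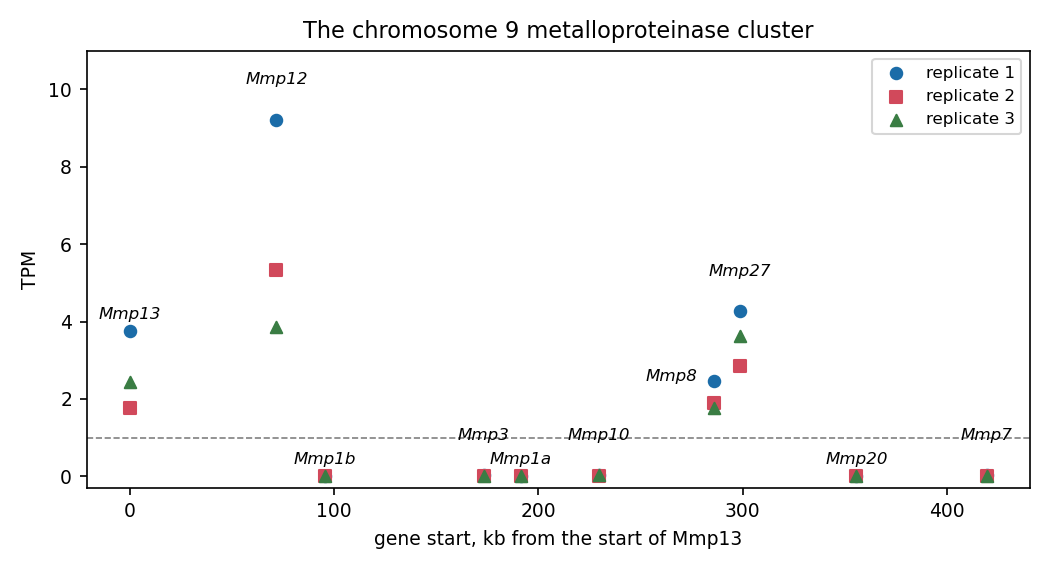
Level in TPM of the 10 metalloproteinase genes of the chromosome 9 cluster against distance from the start of Mmp13 in kb, with a point for each of 3 libraries and a dashed line at 1 TPM. Mmp13, Mmp12, Mmp8 and Mmp27 lie above 1 TPM in every library, and the other 6 genes have between 0 and 2 counts in each.

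Some members share their locus with another gene, and whether counting used strand is not given in the sources used here. Timp1 lies inside Syn1, a synaptic vesicle gene on the opposite strand, with no exon base in common. Syn1 stood at 3.27, 4.61 and 4.06 TPM, above Timp1 in every library. Timp3 lies inside Syn3, also on the opposite strand, and shares 1733 of its 8144 exon bases with it. Syn3 had 2, 2 and 4 expected counts in replicates 1, 2 and 3, beside 2, 11 and 6 for Timp3. The few counts of Timp3 may thus include reads of Syn3. Mmp19 shares 789 of its 3533 exon bases with Tmem198b on the opposite strand, which stood at 2.10, 2.12 and 2.47 TPM, so its count may include reads of that gene.

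The wider protease system was read from lists of related genes. Of 11 other secreted metalloproteinases 1 was detected, Mmp27, and of 6 other membrane-type ones none, the highest being the leukocyte enzyme Mmp25 at 0.49 ± 0.205 TPM. With TPM rescaled to nuclear protein-coding genes these numbers were 2 and 1, with Mmp2 and Mmp25 also past the limit. None of 5 other inhibitors was detected. The highest mean was that of Tfpi2, at 0.10, 0.02 and 0.01 TPM from 3, 2 and 1 counts in replicates 1, 2 and 3, so it rested on replicate 1, and Reck was at 0.04 TPM in every library. Timp4 and its host gene Syn2 had 0 counts. Of 18 other ADAM and ADAMTS genes 6 were detected. They were led by Adam15 at 55.2 ± 4.11 TPM, Adam9 at 28.1 ± 4.91 TPM and Adam17, the sheddase of tumour necrosis factor, at 26.3 ± 2.54 TPM.

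Activators, partners and substrates were present in part. Of 10 proenzyme activators 4 were detected, led by Furin, which activates Mmp14, at 15.8 ± 2.24 TPM and by urokinase, Plau, at 15.6 ± 3.06 TPM, with Pcsk7 at 6.04 ± 0.956 TPM. Of 10 surface partners and clearance receptors 8 were detected. The highest were Cd63, a tetraspanin that binds Timp1, at 235 ± 28.5 TPM, the integrin chain Itgb1 at 79.6 ± 7.11 TPM and Lrp1, which takes up proteases with their inhibitors, at 74.4 ± 22.3 TPM. Of 12 matrix substrates 3 were detected, osteopontin (Spp1) at 449 ± 108 TPM, Thbs1 at 51.7 ± 16.2 TPM and Lamc1 at 2.44 ± 0.259 TPM, whereas all 5 collagen genes of the list stayed below 1 TPM.

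Because Mmp8 and Mmp9 are made by neutrophils and Mmp13 and the inhibitors by stromal cells, markers of those cells are given beside them. Of 10 neutrophil markers 2 were detected, S100a9 at 4.61 TPM and S100a8 at 3.53 TPM, and the summed level of the list was 7.0 to 10.4 TPM. Ly6g and Retnlg had 0 counts in all libraries. The rest were counted below the limit, with Ngp at 9, 31 and 50 counts in replicates 1, 2 and 3. In the same order Camp had 2, 13 and 5 counts, Ltf 1, 9 and 13, and Mpo 3, 2 and 12. Elane had 0, 2 and 7, and Cxcr2 0, 2 and 1. None of 9 stromal markers was detected, at a summed 0.26 to 0.49 TPM, nor any of 5 dendritic cell markers, at 0.20 to 0.34 TPM. The part of other cells in the levels of Mmp8, Mmp9, Mmp13 and the inhibitors was not tested.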

How the data were processed

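Total RNA-seq of 3 libraries of macrophage cytosol was analysed from deposited tables, without reads. Per the file headers, the authors' first tables list, for each gene and transcript, an expected count, its posterior SD (a score not used in any test) and a TPM value that includes every row. A second deposited transcript table gives an estimated count and TPM, and was summed per gene. The build mm10 and the GENCODE M21 annotation are named in the text deposited with the libraries. The aligner, the quantifier and the use of strand were not given in the sources used here. Rows that name no annotated gene held 0.774%, 0.207% and 0.167% of counts in replicates 1, 2 and 3, and no test includes them. TPM is a share of all rows, of which nuclear protein-coding genes held 30.0%, 27.9% and 29.4%.

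After rounding of the expected counts, edgeR 4.0.16 (R 4.3.3) gave TMM factors and, for genes kept by filterByExpr, tagwise dispersions from a model with only an intercept. The chi-square test of homogeneity took genes whose mean count was 10 or more. Levels were compared within each library as log2(TPM + 1), with pseudocount 1. Tables were handled in Python 3.11.15 with numpy 2.4.6, scipy 1.17.1 and pandas 2.3.3. Only the chi-square test and the rule for calling differences were tried on simulated data. The simulated counts held counting noise alone, and the simulated differences had an SD of 0.1. Dispersions and transcript shares were not tried in this way. The alternatives tried were pseudocount 0.1, omission of each replicate in turn, detection limits of 0.1 and 5 TPM, the second quantification, size factors from DESeq2 1.42.0, library totals, no filter on counts, and TPM rescaled to nuclear protein-coding genes.

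Named are the 10 members, the genes of the chromosome 9 cluster, the Syn genes that overlap inhibitors, and of each related list the 3 detected genes of highest mean TPM, or the highest one where none was detected. Mmp2, Timp4, Reck, Tmem198b and the neutrophil markers below the limit fall outside this rule and were chosen after their values were seen. The members and lists were chosen with earlier results of these data known.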

Additional observations from a re-analysis of the deposited data

How the results depend on the processing

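The 5 called differences between genes kept their sign and stayed past 3 SD under every alternative run. That of Mmp14 to Timp2 turned to -0.31 in the second quantification and ranged from -0.041 to 0.13 on leaving out each replicate, so its direction is not fixed by these libraries. On leaving out each replicate, Mmp12 to Mmp13 ranged from 0.81 to 1.15, Mmp13 to Mmp8 from 0.12 to 0.38 and Mmp9 to Timp1 from -0.86 to -0.54, and each passed 3 SD in 1 of these, with an SD from only 2 libraries. Detection at 5 TPM left 4 members, and the second quantification left 5, without Mmp8 and Mmp13. With Timp1, 8 were detected at 0.1 TPM or with TPM rescaled to nuclear protein-coding genes. Of all 22028 protein-coding genes, 9080 were detected at the main setting, 5709 at 5 TPM and 7574 in the second quantification. At 0.1 TPM 10993 were detected, and 10274 with rescaled TPM. On leaving out each replicate, genes past counting noise ranged from 5708 of 13057 tested without replicate 3 to 7319 of 13742 without replicate 1. With all libraries they were 8872 of 13403, in a test over 3 libraries rather than 2. Of the 9 members tested, 7, 6 and 7 passed without replicates 1, 2 and 3, against 8 with all. Levels in the second quantification were lower by a median log2 of -1.16 over detected protein-coding genes, and the cause was not tested. Timp3 was the exception among the members and was higher there, by a log2 of 2.43 at very low levels. There 88.0% of its TPM was in Timp3-203, a transcript without coding sequence. Timp3-201, which encodes the cysteines printed for Timp3, was lower there in every library, at 0.0039, 0.012 and 0.0056 TPM in replicates 1, 2 and 3. Shares of the leading transcript moved beyond 1 SD for 6 of 10 members. Those of Mmp8 and Mmp13 could not move, since each has 1 annotated transcript. Ratios between libraries kept their sign with DESeq2 size factors, and with library totals except that of Mmp19 in replicate 1 (0.013 to -0.018), which leaves 5 of 7 detected members higher there. Depth limits Mmp9, Timp1 and Timp3, with 53 counts or fewer per library. Genes were compared as pairs within each library, but libraries could not be paired with one another because the 3 form 1 group. Groups of 3 are too small for the check for a library far from the others.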
